A study of Mus musculus with 8 samples.

Results

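CpG methylation was examined at 4 collagen genes of the mouse kidney, Col1a1, Col1a2, Col4a1 and Col4a2, by reduced representation bisulfite sequencing (RRBS). In this assay the enzyme MspI cuts DNA at CCGG sites, short fragments are selected, and bisulfite turns unmethylated cytosines into thymines, so that each read over a CpG counts as methylated or not. The CpGs were taken by position from 3 mm9 intervals, chromosome 11 from 94792 to 94820 kb for Col1a1, chromosome 6 from 4450 to 4497 kb for Col1a2, and chromosome 8 from 11193 to 11455 kb for Col4a1 and Col4a2 together. A CpG was kept when every library had at least 10 reads over it. This left 282 of the 976938 CpGs kept in the whole data set. They were 50 of the 144 CpGs seen in any library at Col1a1, 10 of 63 at Col1a2 and 222 of 549 at Col4a1 and Col4a2.

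The 8 libraries came from kidney cortex and outer medulla of male wild type C57BL/6J mice, whose age the labels do not give. Unilateral ureteral obstruction (UUO), in which the left ureter is tied and cut and the kidney scars, was sampled at 7 days in 2 libraries. Another 2 libraries came from mice with UUO given 5AZA in saline at 1 mg per kg per day into the peritoneum, for a time the labels do not state. The labels do not say whether the 2 other UUO libraries came from untreated mice or from mice given saline alone, while the names of their deposited data carry the word saline. Bilateral ischemia, with both renal pedicles clamped for 25 minutes and then released, gave 1 library at 1 week of reperfusion and 1 library at 1 month. Each surgery had its own single sham library, operated on without ligation or clamping, so these 4 groups had no replicate. Nothing in the labels tells whether the 2 libraries of a pair are separate animals, so every SD and p-value measures the spread between libraries, which may be technical.

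Type I collagen, built from the Col1a1 and Col1a2 chains, is the main fibre of scar tissue and is made in the injured kidney by fibroblasts and related cells. Type IV collagen, built from chains that include those of Col4a1 and Col4a2, is the sheet of the basement membranes under tubules and around capillaries. Col4a1 and Col4a2 lie head to head and are transcribed in opposite directions from a shared promoter. Dense CpG promoters are unmethylated in most tissues, while CpGs inside genes are mostly methylated. Agents named 5-aza are cytosine analogues that block DNA methyltransferases, the enzymes that copy methylation onto new DNA. Whole tissue was measured, so a changed mixture of cells and changed methylation within cells cannot be told apart.

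The promoter sequences are shown first because CpGs inside CCGG sites and their close neighbours read very differently in the files. RefSeq promoter windows of GRCm38.p6, from 250 bases before to 50 bases after the start, were available for Col1a2, Col4a1 and Col4a2, and not for Col1a1. They were tied to the mm9 files only by the spacing of CpGs. A position was taken as measured when it had at least 40 reads over the 8 libraries together. Placements were allowed only if every measured position fell on a CpG of the sequence, and the one holding most positions was taken. It held 6 measured positions in the Col1a2 window, 20 in the Col4a1 window and 20 in the Col4a2 window. The next best placements held 2, 4 and 3. Capitals mark CCGG sites and measured CpGs, so a CpG in small letters may still have had a few reads. The first line is the 250 bases before the Col1a2 start, chr6:4505368-4505617 on the plus strand. The others are short pieces beside a CCGG site of the shared promoter, at chr8:11312878-11312907 on the minus strand, chr8:11312610-11312638 on the plus strand and chr8:11312721-11312750 on the plus strand, all 5′ to 3′. Each piece is named for the gene whose window it comes from. The Col4a1 piece therefore lies at higher coordinates than the Col4a2 pieces, the reverse of the sides named for clusters below.
Col1a2 promoter: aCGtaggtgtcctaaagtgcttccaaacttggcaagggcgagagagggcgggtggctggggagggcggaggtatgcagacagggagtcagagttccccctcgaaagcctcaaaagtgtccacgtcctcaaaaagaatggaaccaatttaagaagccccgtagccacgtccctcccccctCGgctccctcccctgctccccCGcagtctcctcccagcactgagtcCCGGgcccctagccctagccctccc
Col4a1 side of the shared promoter: CCGGCGttCGgactccctgCGacaccaagt
Col4a2 side of the shared promoter, first piece: CCGGggCGgcaggggaccagcagagaCGg
Col4a2 side of the shared promoter, second piece: CCGGgtgCGgtgactctgCGcagagacctg

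In the Col4a1 piece, the CpG inside CCGG was read as methylated at 64.5 to 78.1% in the 8 libraries, and the next CpG, 3 bases away, at 0 to 8.33%. In the first Col4a2 piece the CCGG CpG stood at 58.7 to 84.4% and the next CpG at 0 to 4.46%. The second Col4a2 piece gave 63.4 to 78.7% at CCGG and 0 to 3.21% beside it. In the Col1a2 promoter the CCGG CpG stood at 71.7 to 83.3%. Over both Col4 windows, the 7 measured CCGG CpGs ranged from 58.7 to 93.3% and the 32 other CpGs from 0 to 8.33%, so the 2 kinds did not overlap in any library. Per the labels' protocols, the nucleotides used to repair the cut ends included methylated dCTP, and these ends carry the CpG of the CCGG site. All 9 measured CCGG CpGs of the 3 windows were recognised as fragment edges from read depth alone. So were 9 of the 32 other CpGs of the Col4 windows and the 1 other kept CpG at Col1a2. An edge therefore need not be a CCGG CpG. An edge is a CpG with no similar neighbour on at least 1 side, where similar means that the changes in depth between the 2 CpGs, taken without sign in each library and summed, are at most 10% of the larger total. Such edges made up 62.1% of the collagen CpGs and 58.0% of all CpGs kept. Below, a level over interior CpGs leaves the edges out, and 107 interior CpGs remained, 18 at Col1a1, 4 at Col1a2 and 85 at Col4a1 and Col4a2.

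The windows of the collagen promoters differ in how densely they can be read. The Col4a1 window of 300 bases holds 37 CpGs and 6 CCGG sites, the Col4a2 window 33 and 4, and the Col1a2 window 13 and 2. Over all 32851 RefSeq promoter windows of that length the median is 7 CpGs, and 52.8% hold at least 1 CCGG, counted once since its letters are the same on both strands.

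**Figure D1:**
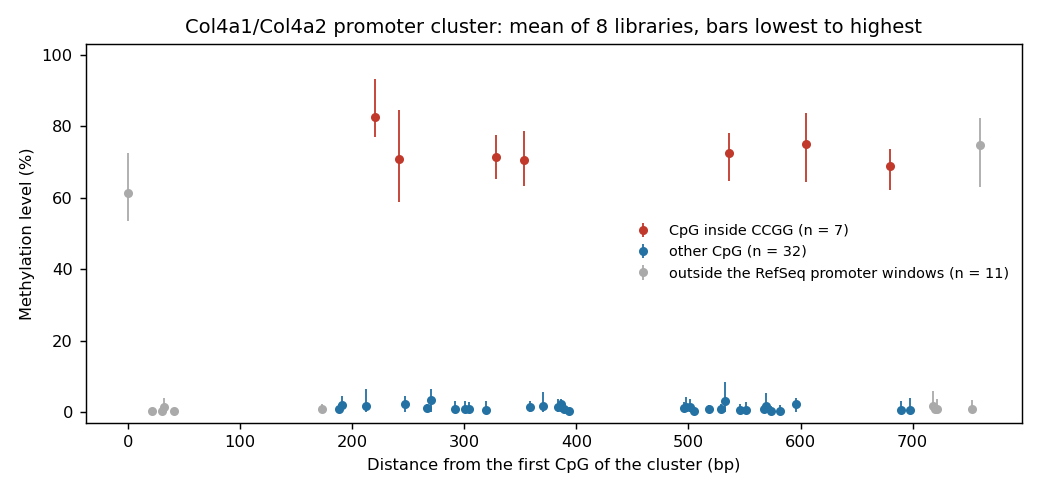
Methylation level (%) of the 50 CpGs in the Col4a1/Col4a2 promoter cluster against the distance from its first CpG (bp); points are means of 8 libraries and bars run from the lowest to the highest library. The 7 CpGs inside CCGG (red) lie at 58.7 to 93.3% in every library and the 32 other CpGs of the RefSeq windows (blue) at 0 to 8.33%; 11 CpGs lie outside these windows (grey).

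Neighbouring CpGs at most 250 bp apart were joined into clusters of at least 3, and a cluster's level is its methylated reads over all its reads. The intervals held 42 of the 92455 clusters, 11 at Col1a1, 2 at Col1a2 and 29 at Col4a1 and Col4a2, and they contained 257 of the 282 CpGs. Of the 25 CpGs in no cluster, all of them edges, 24 had a mean level of 80% or more over the 8 libraries. Libraries held 57853745 to 86411736 reads over CpGs, with a median of 33 to 48 reads per CpG. A collagen cluster had 31 to 5846 reads per library, with a median of 255. The median level was 81.2% in the collagen clusters and 84.2% in all clusters. By the mean of both sham libraries, 1 of the 42 collagen clusters, the Col4 promoter, lay below 30%. At Col1a1, 8 of 11 clusters lay at 70% or more, and at Col4a1 and Col4a2 20 of 29 did. All these levels include the edges. Over interior CpGs other clusters also lay below 30% in UUO and ischemia sham. Examples are chr8:11279391-11279770 (6.99 and 10.4%), chr8:11282205-11282376 (17.4 and 20.5%) and chr11:94798613-94798765 (3.57 and 0%).

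Mean levels over the CpGs of a locus, each CpG counted equally, gave the broadest view. At Col1a1 the mean level was 76.5% in UUO sham, 77.2% ± 0.59 (SD, n = 2) in UUO and 73.2% ± 2.09 (SD, n = 2) in UUO with 5AZA. Ischemia sham stood at 77.5%, 1 week at 74.0% and 1 month at 77.4%. The mean of the 2 UUO libraries exceeded the sham by 0.76 points at Col1a1, while both 5AZA libraries lay below every other library except ischemia at 1 week. At Col1a2 the mean was 50.3% in UUO sham, 53.6% ± 0.56 in UUO and 47.3% ± 1.02 in UUO with 5AZA, beside 50.3, 49.8 and 48.5% in ischemia sham, 1 week and 1 month. At Col4a1 and Col4a2 it was 65.6% in UUO sham, 67.8% ± 0.43 in UUO and 62.7% ± 1.92 in UUO with 5AZA, beside 63.8, 63.0 and 64.0%. The UUO and 5AZA pairs did not overlap at any of the 3 loci. Nor did they over all CpGs kept, with 46.09 and 46.13% in UUO and 44.26 and 43.83% in UUO with 5AZA. The difference between UUO with 5AZA and UUO was -4.07 points at Col1a1, -6.39 at Col1a2 and -5.14 at Col4a1 and Col4a2, against -2.07 points over all CpGs kept, whose mean level is lower. These locus means include the edges and carry no test. Over interior CpGs, UUO exceeded its sham by 1.34 points at Col1a1, 0.44 at Col1a2 and 2.95 at Col4a1 and Col4a2. With all reads of a locus pooled, the differences were -2.29, -0.97 and 3.43 points, so the sign at Col1a1 and Col1a2 depends on the weighting. The 5AZA differences stayed below 0 in both settings.

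**Figure D2:**
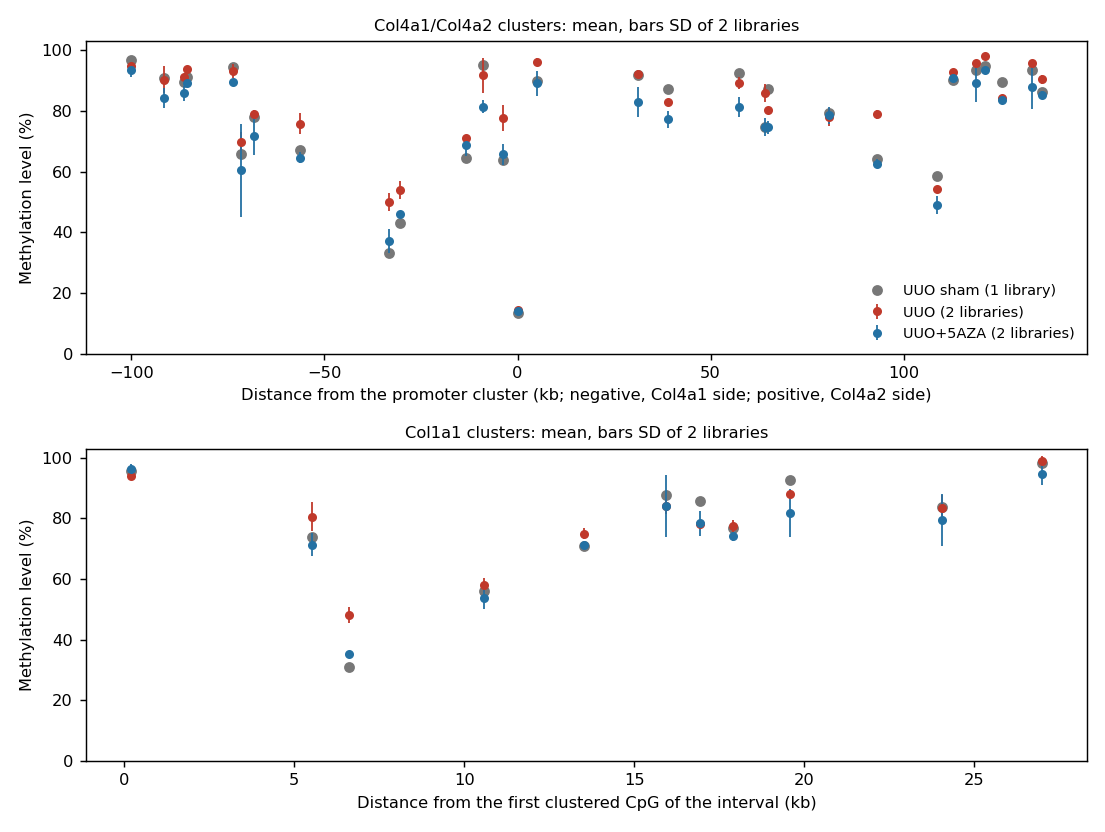
Methylation level (%) of each cluster along the Col4a1/Col4a2 interval (upper panel, kb from the promoter cluster) and the Col1a1 interval (lower panel, kb from the first clustered CpG); grey points are the single UUO sham library, red and blue points are means of 2 libraries with SD bars. The promoter cluster lies near 14% in all 3 groups, and the clusters at 30.0 and 32.6 kb on the Col4a1 side stand at 33.3 to 54.1%.

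The first comparison asked whether obstruction changed collagen methylation. The shared Col4a1 and Col4a2 promoter did not pass the test in UUO. For clusters, the Col4a1 side means coordinates below the promoter cluster and the Col4a2 side coordinates above it. With no test, 3 of 13 clusters on the Col4a1 side and 2 of 15 on the Col4a2 side were at least 10 points higher than in the sham. Differences ran from -3.38 to 16.6 points on the Col4a1 side and from -6.86 to 14.7 points on the Col4a2 side. A call needed 10 points of difference and an adjusted p below 0.05 in a quasi-binomial model, with Benjamini-Hochberg adjustment over all clusters. With edges included, 0 of 42 collagen clusters were called, against 18 of all clusters (0.0195%), 17 of them higher. At an unadjusted p below 0.05 there were 8 of 42 collagen clusters and 7567 of all clusters (8.18%), and edgeR also called 0 collagen clusters and 1 of all. Over interior CpGs, where 14 collagen clusters had at least 3, 2 were called, both higher, against 102 of 30277 (0.337%). The 30277 were not matched to the collagen clusters for level.

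The promoter cluster is the largest of the collagen clusters, with 50 CpGs at chr8:11312369-11313130 (mm9) and 3150 to 5846 reads per library. Over its 29 interior CpGs the level was 1.53% in UUO sham, 1.79 and 1.5% in the 2 UUO libraries, and 1.62 and 1.01% in the 2 libraries of UUO with 5AZA. Ischemia sham stood at 0.63%, 1 week at 0.26% and 1 month at 0.90%. All 8 libraries lay below 2%, and the UUO libraries lay on both sides of their sham. The exact binomial 95% interval was 1.15 to 2.00% in UUO sham and 0.32 to 1.13% in ischemia sham. Such intervals cover counting error at most. They take each count as a separate read, while a read over several CpGs counts at each, so they are too narrow. The interior difference between UUO and sham was 0.11 ± 0.38 points (SE), with an adjusted p of 0.98 in the quasi-binomial model. With the edges in, the levels were 13.5% in UUO sham, 15.1 and 13.8% in UUO, 14.6 and 13.3% in UUO with 5AZA, and 12.6, 11.7 and 12.8% in ischemia sham, 1 week and 1 month.

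The cluster 32.6 kb from the promoter on the Col4a1 side, at chr8:11279391-11279770 with 11 CpGs, had the largest upward difference in UUO of the Col4 clusters. Its level was 33.3% in UUO sham, 52.0 and 47.8% in UUO, 39.8 and 34.4% in UUO with 5AZA, and 38.0, 33.2 and 37.4% in ischemia sham, 1 week and 1 month. Both UUO libraries stood above the 6 others. The difference was 16.6 ± 2.56 points (SE), which missed the threshold with an adjusted p of 0.0793 in the quasi-binomial model. Over its 3 interior CpGs the levels were 6.99% in UUO sham, 28.4 and 28.0% in UUO, 17.1 and 9.01% in UUO with 5AZA, and 10.4, 11.7 and 16.6% in the ischemia series. The interior rise of 21.2 ± 4.13 points was called, with an adjusted p of 0.0287. Without UUO replicate 2 the difference over all 11 CpGs was 18.7 points. Without UUO replicate 1 it was smaller, with 47.8% in the remaining UUO library against 33.3% in the sham. Leaving out a 5AZA library does not change the difference, only the spread estimated for its test, so nothing is read from those fits.

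Of the 11 CpGs of that cluster, 10 were higher in both UUO libraries than in the sham, and 8 were lower in both 5AZA libraries than in both UUO libraries. Over all CpGs kept these shares were 32.6% and 26%, but the cluster is described here for its UUO difference and both counts use the UUO libraries, so nothing is read from them. The CpG at 11279403, picked after its values were seen, was methylated in 3.29% of reads in UUO sham, 31.7 and 21.4% in UUO, 11.1 and 7.97% in UUO with 5AZA, and 16.3, 13.3 and 18.8% in the ischemia series. Its ischemia sham was thus higher than its UUO sham, and the 3 ischemia libraries lay below both UUO libraries.

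A second cluster, 30.0 kb from the promoter on the same side at chr8:11282205-11282376, behaved in a like way; it lies outside the rule for named clusters and was picked after its values were seen. Its level was 43.0% in UUO sham, 51.9 and 56.2% in UUO, 46.1 and 46.0% in UUO with 5AZA, and 44.4, 46.5 and 42.3% in ischemia sham, 1 week and 1 month. Over 3 interior CpGs it was 17.4% in UUO sham, 36.0 and 36.6% in UUO, 23.3 and 20.8% in UUO with 5AZA, and 20.5, 25.9 and 21.1% in the ischemia series. Both UUO libraries were above all others on either count. The difference of 11.1 ± 2.93 points over all 5 CpGs had an adjusted p of 0.258, and the interior rise of 18.9 ± 3.82 points was called with an adjusted p of 0.034.

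The cluster 3.3 kb from the promoter on the Col4a1 side, at chr8:11308753-11309107 with 8 CpGs, started from a higher level. It stood at 63.9% in UUO sham, 80.6 and 74.6% in UUO, 68.2 and 63.3% in UUO with 5AZA, and 63.4, 62.0 and 68.6% in ischemia sham, 1 week and 1 month. Both UUO libraries again exceeded the 6 others. The difference of 13.7 ± 2.95 points did not pass (adjusted p = 0.198), nor did the interior difference of 21.2 ± 5.22 points (adjusted p = 0.122). Fits without a 5AZA library again keep the difference over all 8 CpGs and change only the estimated spread, so nothing is read from them.

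**Figure D3:**
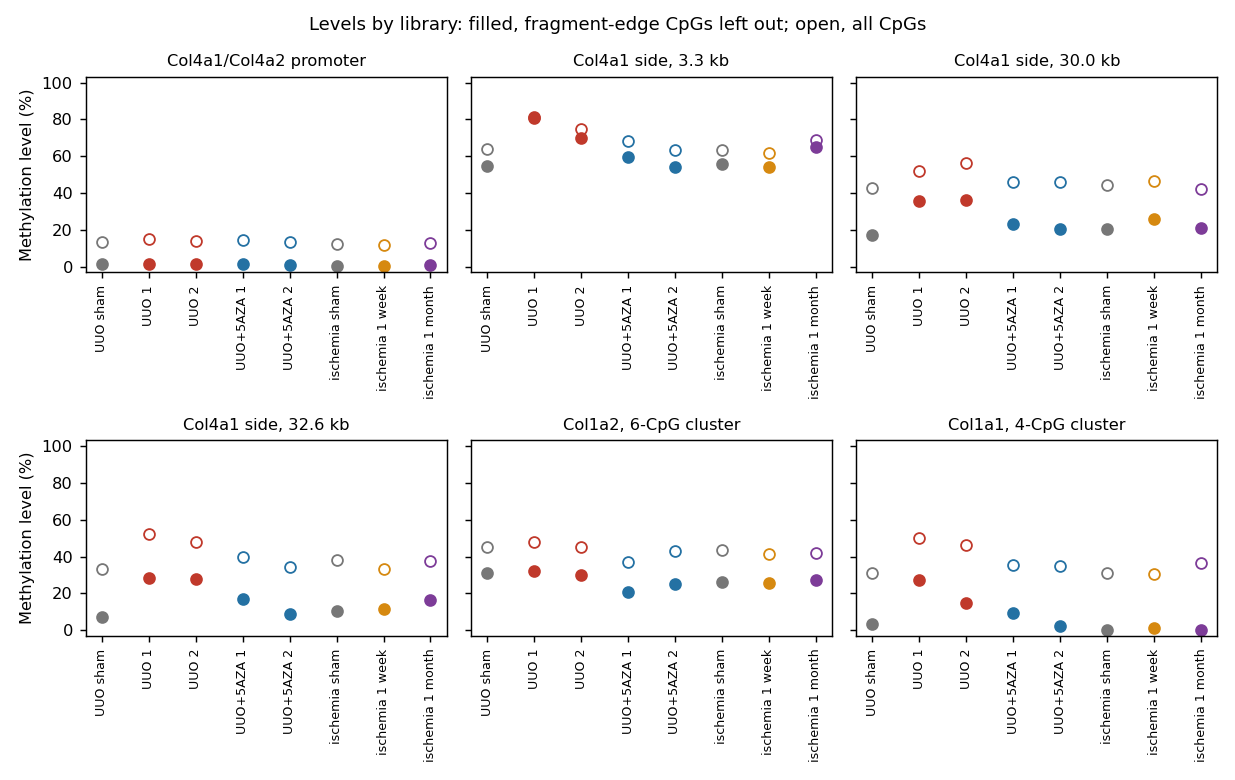
Methylation level (%) in each of the 8 libraries for 6 clusters, with filled points for interior CpGs and open points for all CpGs. At 30.0 and 32.6 kb on the Col4a1 side both UUO libraries lie above the 6 other libraries, while the filled points of the promoter stay below 2% in every library.

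At Col1a1 the largest upward difference in UUO was in a cluster of 4 CpGs at chr11:94798613-94798765. Its level was 30.9% in UUO sham, 50.0 and 46.3% in UUO, 35.6 and 34.8% in UUO with 5AZA, and 31.0, 30.4 and 36.4% in ischemia sham, 1 week and 1 month. Both UUO libraries were above the 6 others. The depth was low, with 41 to 168 reads per library, and the difference of 17.3 ± 8.85 points did not pass (adjusted p = 0.673). Its 2 interior CpGs gave 3.57% in UUO sham, 27.3 and 15.0% in UUO, 9.52 and 2.17% in UUO with 5AZA, and 0, 1.19 and 0% in the ischemia series. A library had as few as 10 reads at each of them. The exact 95% interval for the UUO sham was 0.09 to 18.4%, which overlaps the second UUO library. In ischemia sham, 0 of 64 counts were methylated, from 32 reads at each of the 2 CpGs. The upper exact 95% limit was 5.6%, and the limit set by 3 counts is 4.69%. All these limits take each count as a separate read, so they are too narrow where 1 read covers both CpGs.

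The largest Col1a1 cluster, 8 CpGs at chr11:94802559-94802778, showed no such separation. It stood at 56.1% in UUO sham, 56.4 and 59.7% in UUO, 51.2 and 56.3% in UUO with 5AZA, and 59.3, 52.4 and 58.6% in the ischemia series. The UUO difference was 1.99 ± 3.46 points (adjusted p = 0.948). A Col1a1 cluster of 5 CpGs at chr11:94808958-94809049 gave the largest downward difference at Col1a1, with 85.7% in UUO sham, 78.7 and 77.7% in UUO, 81.2 and 75.4% in UUO with 5AZA and 81.2, 79.0 and 81.8% in the ischemia series. That difference of -7.52 ± 2.83 points did not pass (adjusted p = 0.51).

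At Col1a2 neither cluster passed the test. The larger, 6 CpGs at chr6:4454361-4454537, lies about a kilobase before the promoter cluster and stood at 45.3% in UUO sham, 47.9 and 45.0% in UUO, 37.3 and 43.0% in UUO with 5AZA, and 43.7, 41.4 and 42.05% in the ischemia series. Over 4 interior CpGs it was 30.8% in UUO sham, 32.0 and 30.2% in UUO, 20.5 and 25.2% in UUO with 5AZA, and 25.9, 25.9 and 27.1% in the ischemia series. The UUO libraries lay on both sides of their sham, with a difference of 1.17 ± 3.54 points (adjusted p = 0.974). Its sign turned to -0.26 without UUO replicate 1.

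The other Col1a2 cluster spans the start site, with 1 of its 3 CpGs, inside a CCGG, in the promoter sequence printed above. It stood at 57.3% in sham and 38.8 and 50.8% in UUO, with 42.4 and 50.0% in UUO with 5AZA and 44.9, 54.3 and 37.5% in the ischemia series. The difference of -12.5 ± 6.77 points had an adjusted p of 0.691. It consists of 3 edge CpGs, 2 of them inside CCGG at 55.6 to 84.0% and 1, at 4455629, at 0 to 6.38%. The low CpG had 23 reads in UUO sham and 66 and 47 in UUO, so its share of the cluster's reads differed between these libraries. With equal weight for each CpG the levels were 43.4% in sham and 51.0 and 54.0% in UUO, a difference of 9.08 points in the opposite direction. The direction at this cluster therefore depends on the weighting.

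Counts over all collagen clusters put these values in place. Both UUO libraries were above the sham in 21 of 42 clusters (50.0%), against 42.2% of all clusters, and below it in 11 of 42 (26.2%), against 28.0%. A difference of at least 10 points upwards was seen in 6 of 42 (14.3%), against 3.43% of all clusters, with no test. Here and below, all clusters were not matched to the collagen clusters for level. The mean over all CpGs kept was 45.25% in UUO sham, lower than at the 3 loci. Of these 6, 5 were Col4 clusters and 1 was at Col1a1. The median difference was 1.11 points over the collagen clusters and 0.46 over all clusters. On the Col4a1 side of the promoter 9 of 13 clusters had a difference above 0 and on the Col4a2 side 9 of 15 did, against 57.3% of all clusters.

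In obstructed kidneys, mice given 5AZA were compared with those not given it. Levels were lower with 5AZA at most collagen clusters. Called clusters numbered 2 of 42, both lower and both on the Col4a1 side, against 893 of all clusters (0.966%), of which 888 were lower (0.96%). Both UUO with 5AZA libraries were below both UUO libraries in 30 of 42 collagen clusters (71.4%), against 50.8% of all clusters, and above both in 1 of 42, against 5.08%. The median difference was -5.58 points over the collagen clusters and -2.93 over all clusters, which were not matched for level. At Col4a1 and Col4a2 28 of 29 clusters had a difference below 0, with a median of -6.1 points, and at Col1a1 8 of 11 did, with a median of -3.94, against 80.7% of all clusters.

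The 2 called clusters were those at 32.6 and 3.3 kb on the Col4a1 side, whose levels in every library are given above. At 32.6 kb the level fell by 12.8 points with 5AZA (SE 2.44, adjusted p = 0.031 in the quasi-binomial model), and at 3.3 kb it fell by 11.9 points (SE 2.42, adjusted p = 0.0452). Their differences between UUO and sham, 16.6 and 13.7 points, had not been called, and the 2 comparisons share the UUO libraries. With 5AZA, the cluster at 32.6 kb stood at 37.1% ± 3.84 (SD, n = 2), beside 49.9% ± 2.97 in UUO and 33.3% in the single sham. The cluster at 3.3 kb stood at 65.8% ± 3.42 with 5AZA, beside 77.6% ± 4.24 in UUO and 63.9% in the sham. Neither call held without UUO replicate 1 (adjusted p = 0.0902 at 32.6 kb and 0.14 at 3.3 kb), without 5AZA replicate 2 (0.119 and 0.108), with clusters joined at 100 bp (0.0529 and 0.0729) or in edgeR (0.0506 and 0.0575). Both differences stayed below 0 in these settings, between -8.87 and -13.2 points. The call at 3.3 kb was also lost in fixed windows of 1 kb (adjusted p = 0.0914).

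Over interior CpGs 3 of 14 collagen clusters were called with 5AZA, all lower, against 1.75% of all clusters, which were not matched for level. The mean over all interior CpGs was 21.87% in UUO sham, beside 46.92% at Col4a1 and Col4a2. The 3 lay on the Col4a1 side. They were the clusters at 32.6 kb (-15.2 ± 4.44 points, adjusted p = 0.0474), 30.0 kb (-14.3 ± 3.49 points, adjusted p = 0.0312) and 3.3 kb (-18.9 ± 4.48 points, adjusted p = 0.0467). The promoter stayed apart: its interior difference with 5AZA was -0.33 ± 0.33 points (adjusted p = 0.538), from a level already below 2%.

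The largest downward difference with 5AZA was at a cluster of 3 CpGs 92.6 kb from the promoter on the Col4a2 side, at chr8:11405708-11405880. It stood at 64.3% in UUO sham, 78.0 and 80.0% in UUO, 61.5 and 63.8% in UUO with 5AZA, and 60.8, 68.8 and 68.8% in ischemia sham, 1 week and 1 month. The UUO pair was above the 6 other libraries. The difference of -16.3 points (SE 4.92) missed the threshold with an adjusted p of 0.0755, with only 51 to 138 reads per library. At the Col1a1 cluster of 4 CpGs described above the difference was -12.96 points (SE 6.96, adjusted p = 0.259).

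A few clusters were higher with 5AZA, and none of them passed the test. The largest upward difference was 2.29 ± 1.72 points, at a Col1a1 cluster of 4 CpGs at chr11:94792086-94792479, which stood at 95.7% in UUO sham, 93.0 and 94.8% in UUO, 97.3 and 95.1% in UUO with 5AZA and 99.4, 94.7 and 97.0% in the ischemia series. Its adjusted p was 0.497. Next came the Col1a2 promoter cluster with 1.39 ± 5.62 points, which became -6.19 points with equal weight for each CpG, -4.58 without UUO replicate 1 and -2.43 without 5AZA replicate 2, but 7.37 without UUO replicate 2 and 5.22 without 5AZA replicate 1. At the larger Col1a2 cluster both 5AZA libraries were below both UUO libraries, with a difference of -6.34 points (SE 2.66, adjusted p = 0.196).

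**Figure D4:**
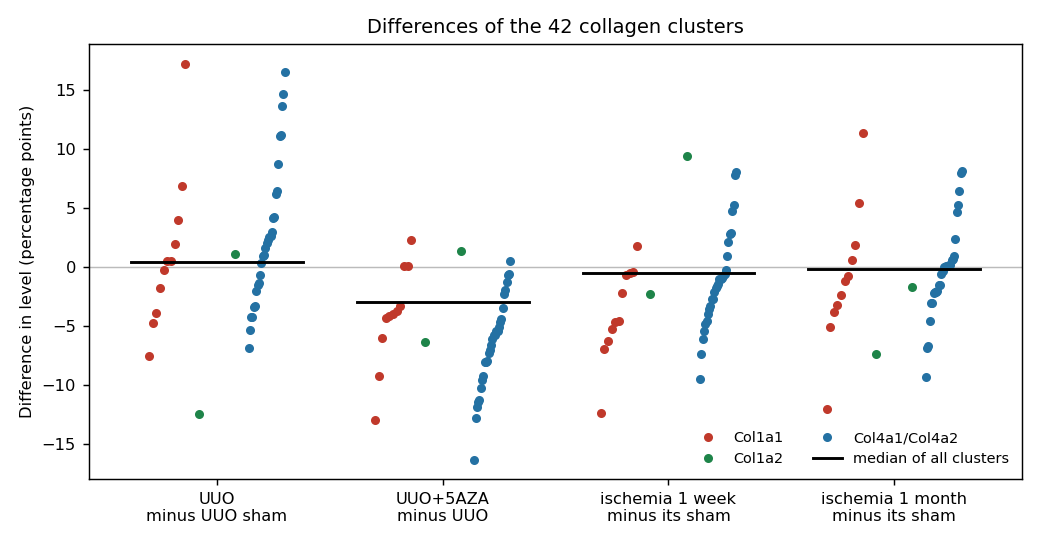
Difference in methylation level (percentage points) of each of the 42 collagen clusters for UUO, for 5AZA in UUO and for both ischemia times, coloured by locus, with a black line at the median of all clusters. The 5AZA differences of the collagen clusters have a median of -5.58 points against -2.93 for all clusters, and 28 of 29 Col4 clusters lie below 0.

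The third comparison set the ischemic kidneys against their own sham. No collagen cluster and no cluster of the genome was called at 1 week or at 1 month (0.0%) by the quasi-binomial model, with 1 library a group and the spread borrowed from the UUO and 5AZA pairs. At an unadjusted p below 0.05 there were 3 of 42 collagen clusters at 1 week, against 3889 of all (4.21%), and 1 of 42 at 1 month, against 4461 of all (4.83%). EdgeR called 0 of all clusters at either time. A Fisher's exact test on the reads at 25 points counted 31 and 29 clusters of the genome, and it compares libraries, not conditions. No collagen cluster could be counted there. Their differences ran from -12.33 to 9.47 points at 1 week and from -12.04 to 11.43 points at 1 month.

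At 1 week the Col1a1 clusters leaned downwards, with a difference below 0 in 10 of 11 and a median of -4.55 points, against -0.52 for all clusters, 58.2% of which were below 0. At 1 month 7 of 11 were below 0, against 52.5% of all clusters, with a median of -1.16 points. These clusters share 1 sham library and are not replicates of a condition. The 1 week difference of the whole Col1a1 locus was -3.43 points with each CpG counted equally and -6.46 over interior CpGs. With all reads pooled it was -0.46 points, so its size depends on the weighting. The largest downward difference at both times was at a Col1a1 cluster of 3 CpGs at chr11:94816081-94816210. It stood at 90.7% in ischemia sham, 78.4% at 1 week and 78.7% at 1 month, beside 83.7% in UUO sham, 80.5 and 86.4% in UUO, and 73.4 and 85.6% in UUO with 5AZA. The sham was the highest of the 8 libraries, and the 2 ischemic libraries lay within the range of the UUO series. The differences were -12.33 ± 5.19 and -12.04 ± 5.60 points, with an adjusted p of 1 for both. The exact 95% intervals were 83.6 to 95.5% in the sham, 72.5 to 83.6% at 1 week and 71.8 to 84.6% at 1 month. They too count a read at each CpG it covers and may be too narrow.

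The largest upward difference at 1 month, 11.4 ± 5.59 points (adjusted p = 1), was at a Col1a1 cluster of 3 CpGs at chr11:94805518-94805705. Its level was 62.8% in ischemia sham, 62.4% at 1 week and 74.3% at 1 month, beside 70.8% in UUO sham, 76.1 and 73.6% in UUO and 71.1 and 71.2% in UUO with 5AZA. Here the ischemia sham and the 1 week library stood below the other 6. At 1 week the largest upward difference was 9.47 ± 6.33 points at the Col1a2 promoter cluster, which came to 2.41 points with equal weight for each CpG. The next was 8.06 ± 8.49 points at the cluster 92.6 kb away on the Col4a2 side, and neither passed (adjusted p = 1 for both).

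On the Col4a2 side, 2 clusters lay on opposite sides of their sham after ischemia, and neither passed the test (adjusted p = 1). The cluster 63.7 kb from the promoter at chr8:11376857-11377071 stood at 87.9% in ischemia sham and at 78.4 and 78.6% at 1 week and 1 month. In the UUO series it stood at 74.8% in sham, 88.2 and 84.0% in UUO, and 76.7 and 72.6% with 5AZA. The cluster 56.8 kb away at chr8:11369948-11370022 stood at 76.7% in ischemia sham and at 84.6 and 84.9% at 1 week and 1 month, and at 92.7% in UUO sham, 88.0 and 90.8% in UUO, and 79.1 and 83.7% with 5AZA. In both clusters the 2 sham libraries stood farther apart than either ischemic library stood from its sham, so the sign of each difference rests on 1 sham library.

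The last comparison asked whether obstruction and ischemia at 1 month differed in their effect, each against its own sham. No cluster was called in the genome (0.0%), while 6 of 42 collagen clusters and 3954 of all clusters (4.28%) had an unadjusted p below 0.05, and edgeR called 0. The difference was largest at the cluster 63.7 kb away on the Col4a2 side (20.5 ± 6.28 points) and at 32.6 kb on the Col4a1 side (17.2 ± 4.40 points), both with an adjusted p of 0.999. In fixed windows of 1 kb the value at 63.7 kb was 3.52. The difference was most negative at 56.8 kb (-11.5 ± 4.66 points) and at 108.1 kb on the Col4a2 side (-10.6 ± 6.56 points). With both shams taken as 1 group the sham terms cancel, which leaves UUO minus ischemia at 1 month, another quantity. That quantity was 7.51, 12.5, 4.52 and 12.9 points at 63.7, 32.6, 56.8 and 108.1 kb. No reversal of the difference in effect is read from it. The cluster at 108.1 kb, 5 CpGs at chr8:11421241-11421377, stood at 58.6% in UUO sham, 53.8 and 55.0% in UUO, 51.0 and 47.0% in UUO with 5AZA, and 35.0, 40.3 and 41.5% in ischemia sham, 1 week and 1 month. All 3 libraries of the ischemia series were below all 5 of the UUO series.

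Some collagen CpGs were lost to the read minimum through a single library. At Col1a1 11 CpGs failed only in UUO replicate 1 and 5 only in UUO sham. At Col1a2 4 failed only in UUO replicate 1 and 1 only in ischemia at 1 week. At Col4a1 and Col4a2 16 failed only in UUO replicate 1 and 14 only in UUO sham. Others there failed only in ischemia sham (4), 5AZA replicate 2 (4), UUO replicate 2 (2) or ischemia at 1 week (1). In the Col1a1 fragment from 94799171 to 94799407 the 3 inner CpGs stood at 0 to 5.21% in every library and the 2 end CpGs at 51.3 to 100%, with 6 or 7 reads in UUO replicate 1. In the Col1a2 promoter the 3 CpGs at 4455369, 4455547 and 4455568, the first 3 in capitals in the sequence above, stood at 0 to 9.09%, with 2 reads each in UUO replicate 1.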

How the data were processed

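Per the labels' protocols, RRBS fragments were made with MspI, filled in with a mix holding methylated dCTP, size-selected and bisulfite-converted. Per the submitters' processing notes, Bowtie and mm9 were used. For the methylation caller and read filters, the sources used here give nothing. The authors deposited, for each CpG and library, a count of covering reads and a count of methylated reads, not normalized. The deposited fraction equalled their ratio at every position and was not used further.

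Groups came from the sample titles. Positions with 10 or more reads in all 8 libraries were joined at gaps of up to 250 bp into clusters of at least 3. A quasi-binomial model over all 8 libraries, with a mean for each group, was run on 92455 clusters (Python 3.11.15, numpy 2.4.6). It had 2 residual degrees of freedom, and its dispersion was moderated with limma 3.58.1 (9.52 prior degrees of freedom) and not allowed below 1, so a lone library was taken to vary as the pairs do. P-values are two-sided F tests with Benjamini-Hochberg adjustment over all clusters, and calls needed an adjusted p below 0.05 and 10 points. Both pairs differed by more than sampling noise (chi-square per position of 1.23 and 1.18). An edge is a CpG that on at least 1 side had no neighbour within 250 bp, among CpGs of at least 40 reads in all, for which the absolute depth changes per library, summed over the libraries, were at most 10% of the larger total. Reads over several CpGs count at each, and PCR copies are not told apart. The model was tested on simulated counts. Alternatives included edgeR 4.0.16.

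Clusters named are the largest per interval, the promoter, those called, and the 2 largest rises and falls per comparison. The members and lists were chosen with earlier results of these data known. Other collagen genes, annotation of exons and introns and genes of similar pattern were not analysed here, since the gene table at hand is of another build.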

Additional observations from a re-analysis of the deposited data

How the results depend on the processing

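Counts of called collagen clusters moved with the setting, and the causes were not tested. For UUO (0 called), 2 were called with edges left out, 1 with only the compared libraries in the model, 2 with both shams as 1 group, 2 with a replicate block, and 0 to 2 with 1 library left out. For 5AZA (2 called), 0 were called at a minimum of 20 points, 0 with clusters joined at 100 bp, 1 with fixed windows of 1 kb, 0 in edgeR, 4 with a replicate block, and 0 to 5 with 1 library left out (0 without UUO replicate 1 or 5AZA replicate 2, 5 without 5AZA replicate 1). The 0 at 20 points was fixed beforehand, since the lowest 5AZA difference of a collagen cluster was -16.31 points. For the difference between obstruction and ischemia (0 called), 1 was called with the replicate block. The replicate numbers carry no stated pairing, and same-numbered deviations correlated at 0.05 over clusters, so the block is given only here. Over the genome, UUO calls ran from 1 (edgeR) to 868 (replicate block) around 18, and 5AZA calls from 65 (20 points) to 3426 (replicate block) around 893.

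In the fitted settings, signs turned at small differences. At the larger Col1a2 cluster the UUO difference became -0.85 points with clusters joined at 100 bp and ran from -0.26 without UUO replicate 1 to 2.6 without UUO replicate 2. At the Col4 promoter the ischemia 1 month difference became -0.4 with fixed windows of 1 kb and -0.25 with both shams as 1 group, and the 5AZA difference became 0.08 without UUO replicate 1 and 0.1 without 5AZA replicate 2, with a lowest value of -1.19 without 5AZA replicate 1. At the Col1a2 promoter cluster the 5AZA difference ran from -4.58 without UUO replicate 1 to 7.37 without UUO replicate 2, and was -2.43 without 5AZA replicate 2. With both shams as 1 group, the comparison of obstruction and ischemia at 1 month loses its sham terms. Its 4.52 points at 56.8 kb and 12.9 points at 108.1 kb on the Col4a2 side are then UUO minus ischemia at 1 month. They are not read as a turn of sign. The equal weight per CpG was chosen after seeing the data. Depth limits the Col1a1 clusters most, where a library held as few as 31 reads.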

Other observations

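One CpG of the cluster 3.3 kb from the promoter on the Col4a1 side, at 11308856 on chromosome 8, differed between the surgery series rather than with injury. It was methylated in 39.6% of reads in UUO sham, 41.5 and 35.8% in UUO, and 38.0 and 27.1% in UUO with 5AZA. In the 3 libraries of the ischemia series it was at 0%, with 0 of 133 reads in all, which allows a level of up to 2.26%. Of the 976938 CpGs kept, 37 were at 0 in all 3 ischemia libraries and at 20% or more in all 5 UUO libraries, and 1 showed the opposite; these limits were set after this CpG was seen. It is a fragment edge, so the interior values of its cluster do not include it.

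The 2 sham libraries were 10 or more points apart at 4 of the 42 collagen clusters, with a median distance of 3.39 points. The widest gap was at the cluster 108.1 kb from the promoter on the Col4a2 side, with 58.6% in UUO sham and 35.0% in ischemia sham, and its 3 interior CpGs stood at 41.1 and 16.0%. Surgery and any other difference between the 2 series cannot be told apart with 1 sham each.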
